A study of Mus musculus with 8 samples.

Results

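The wild-type e15.5 pancreas is described here from 4 of the 8 arrays of a study of Sox9 loss in the developing mouse pancreas. The 4 arrays were chosen by their titles, which mark them as wild-type replicates 1 to 4, called pools 1 to 4 below, and no mutant value was used. Each array carried the RNA of 1 pool of 4 pancreata, dorsal and ventral together, microdissected as epithelium at e15.5. The embryos were labelled wild-type littermates and carried Rosa26-CreER, a tamoxifen-activated recombinase expressed from a ubiquitous locus. Their dams had received tamoxifen at 6 mg per 40 g in corn oil at e12.5, so this baseline is that of recombinase-carrying, tamoxifen-exposed tissue on a mixed FVB/N, C57Bl/6J and CD1 background. The labels do not say whether the 4 pools came from separate litters, and the spread between them is a spread between pools, not between single embryos.

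At this stage, called the secondary transition, the pancreatic epithelium separates into tips that form enzyme-secreting acinar cells and a trunk that forms ducts and, through Neurog3-positive precursors, hormone-secreting endocrine cells. Acinar cells make digestive enzymes as inactive precursors on the rough endoplasmic reticulum and store them in zymogen granules. The bud grows within mesenchyme, vessels and nerves that dissection can carry along.

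Levels are log2 signals from which each array's 75th percentile over probes was subtracted, so 0 is that percentile and a difference of 1 is 2-fold. Means carry the SD over the 4 pools. A gene counted as measured when the scanner software called one of its probes well above background on all 4 arrays, and its brightest such probe stood for it. Of 27745 gene names on the array, 18327 (66.1%) were measured, and 15353 of these had a current mouse symbol. Measured levels ran from -6.21 to 7.90, with a median of -0.37. The arrays were alike in quality: the median processed signal was between 219 and 246 scanner units, between 69.0% and 72.1% of the 41174 probes passed the background call, and 0 spots were saturated. The median signal of the negative control spots, before background subtraction, ran from 69.8 in pool 4 to 85.1 in pool 1. All 4 lay on 1 slide and in 1 scan. Signal per probe depends on the probe as well as on the RNA, so the order of genes below is an order of probe signals.

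Translation and digestion genes held the top of the order. Of the 100 brightest genes, 42 coded for ribosomal proteins and 7 for acinar enzymes or their cofactors. A further 4 were histone genes, 4 were imprinted genes, 2 were subunits of oxidative phosphorylation and 1 was a mesenchymal collagen. Another 19 had no current symbol, and the array's description named a ribosomal protein for 8 of them. Among the 30 brightest genes, 15 were ribosomal protein genes and 5 were acinar genes by current symbol. Amy2, an amylase name on the array without a current symbol, was also among these 30. It is in neither this count nor the 7 acinar genes among the 100 brightest.

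Rpl7a, a protein of the large ribosomal subunit, had the highest signal, with 7.94, 7.83, 8.0 and 7.83 in pools 1 to 4. Rps18, of the small subunit, followed at 7.87 ± 0.07, and Rps23 and Rps14 at 7.79 ± 0.10 and 7.76 ± 0.10. Of 84 ribosomal protein genes on the array, 83 were measured with a median level of 6.49, and 77 of them were among the 1000 brightest genes. Their median SD between pools was 0.0853. Rpl30 was the member with the largest spread. It read 3.16, 4.03, 4.62 and 4.67, so pool 1 lay lowest and pools 3 and 4 close together. Rpl32 lay at 7.10, 7.12, 7.23 and 7.11, with pool 3 alone above the rest by about the size of the median spread of all genes.

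**Figure D1:**
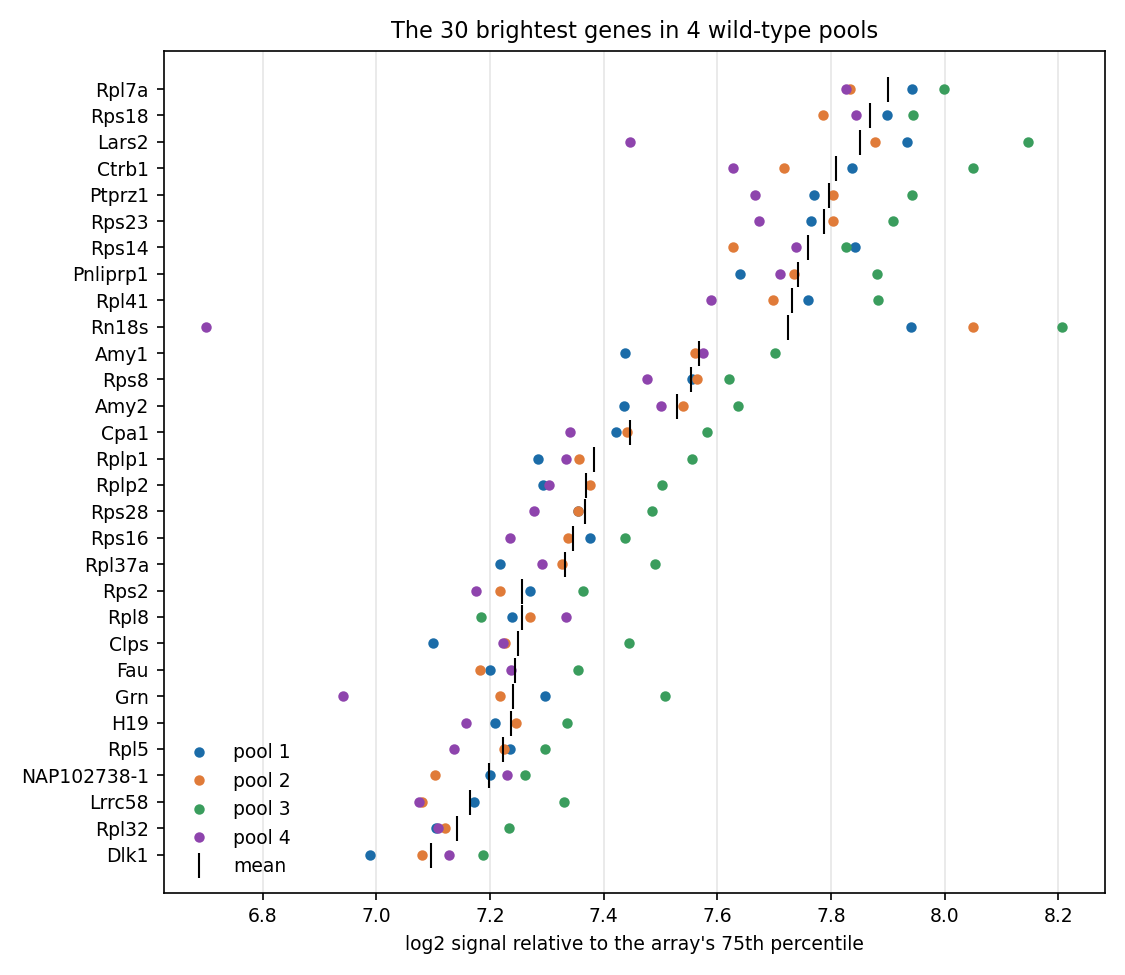
The 30 brightest genes, in order of their mean, with the log2 signal relative to the array's 75th percentile on the horizontal axis. Each point is 1 pool and the bar is the mean of 4 pools. Means run from 7.10 for Dlk1 to 7.90 for Rpl7a, and Rn18s in pool 4 (6.70) lies farthest from its other pools.

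The acinar proteases formed the brightest cell-type list, with all 13 proteases on the array measured and a median level of 5.0, against -0.37 for all measured genes. Ctrb1, the chymotrypsinogen B gene (probe A_51_P205761, chromosome 8, 114575271 to 114575330 on mouse assembly mm8), was the fourth brightest gene of all. It read 7.84, 7.72, 8.05 and 7.63, highest in pool 3. Cpa1, a carboxypeptidase A that also marks multipotent tip cells earlier in development (probe A_52_P161237, chromosome 6, 30595250 to 30595309, mm8), read 7.42, 7.44, 7.58 and 7.34. Cela3b, an elastase, read 6.29, 6.74, 7.10 and 6.62, and Ctrc, the chymotrypsin C that activates and degrades other zymogens, 5.82, 6.34, 6.78 and 6.40. In both, pool 1 lay lowest and pool 3 highest. The trypsinogens Prss3 (5.23 ± 0.32), Try5 (4.70 ± 0.27) and Prss2 (3.11 ± 0.29) were dimmer, and Ctrl was at -2.07 ± 0.47. Trypsinogen, amylase and insulin genes have near-identical copies whose RNA can share a probe, so the split between them is uncertain.

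Lipase, amylase and granule genes spanned nearly the whole range of the arrays. The colipase gene Clps read 7.10, 7.23, 7.44 and 7.22, and Pnliprp1, a lipase-related protein, 7.64, 7.73, 7.88 and 7.71. Amy1 lay at 7.57 ± 0.11, an unmatched array name, Amy2, at 7.53 ± 0.08, and Cel, the bile salt-dependent lipase, at 6.26 ± 0.19. In contrast Pnlip, the classical pancreatic lipase, was measured at only -3.54 ± 0.15. Gp2, the main membrane protein of zymogen granules, was at -2.64 ± 0.19 and Pla2g1b, the secreted phospholipase, at -4.21 ± 0.20. Of 18 such genes on the array 17 were measured, with a median of 2.18. Reg2 was above background on some arrays only.

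The factors that run the acinar programme varied less between pools than its products. Their median level of 3.42 lay between that of the proteases and that of the lipase, amylase and granule genes. Ptf1a, which drives acinar fate, read 3.30, 3.37, 3.23 and 3.32 (chromosome 2, 19364847 to 19364906, mm8). Its partner Rbpjl lay at 4.11 ± 0.03, Bhlha15, which organises the secretory cell, at 4.49 ± 0.07, and Gata6 at 3.53 ± 0.03. Nr5a2 read 1.88, 2.13, 1.85 and 1.34, lowest in pool 4. The median SD was 0.0784 over the 8 acinar factors, 0.295 over the 13 proteases and 0.187 over the 17 lipase, amylase and granule genes. Over all measured genes it was 0.118, and among the 4582 brightest genes 0.0853. The pools therefore differed more in acinar products than in acinar factors, although an SD above 0.5 was reached by 0 of the 13 proteases. Among the lipase, amylase and granule genes 3 of 17 passed 0.5, against 2.28% of all measured genes. They were Dmbt1 at -3.66 ± 1.3, Zg16 at 0.81 ± 0.76 and Rnase1 at 4.26 ± 0.53.

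The acinar products moved together between pools, and the acinar factors did not share their order. Of the 13 proteases, 10 were lowest in pool 1 and 8 were highest in pool 3, and of the 17 other acinar products 13 were lowest in pool 1 and 14 highest in pool 3. Of all measured genes, 24.1% were lowest in pool 1 and 22.5% highest in pool 3. Of the 8 acinar factors, 1 was lowest in pool 1 and 1 highest in pool 3, while 4 were lowest in pool 4 and 5 highest in pool 2. The mean over the proteases was 4.42, 4.61, 4.95 and 4.79 in pools 1 to 4. Cela2a, which had the largest SD among them, read 4.33, 4.97, 5.47 and 5.12. Zg16, a granule lectin, read -0.21, 0.69, 1.5 and 1.26. Both were lowest in pool 1 and highest in pool 3. Under the 6 other scalings and sources tried, 9 or 10 of the 13 proteases were lowest in pool 1, and 6 to 8 were highest in pool 3. This order was not particular to acinar products. Of the 13 hormone genes, 8 were lowest in pool 1 and 7 highest in pool 3. For the 13 endothelial genes these counts were 9 and 8, and for the 18 imprinted genes 9 and 10. Of the ribosomal protein genes, 45 of 83 were lowest in pool 1 and 62 of 83 were highest in pool 3. Under quantile normalization the counts were 34 lowest in pool 1 and 20 highest in pool 3, and 25 and 18 of 82 with the series values the authors deposited. In bulk tissue a lower share of a cell type and less RNA per cell cannot be told apart.

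The endoplasmic reticulum genes that fold and move secreted proteins were bright. All 24 on the array were measured, with a median of 4.61, and 20 were among the 1000 brightest. Sec61b, a subunit of the channel into the endoplasmic reticulum, lay at 6.42 ± 0.03, and the chaperones Hsp90b1 and Hspa5 at 6.20 ± 0.10 and 6.11 ± 0.18. Hyou1, a further chaperone, varied most, with 3.51, 3.19, 3.41 and 4.02 and pool 4 highest.

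Hormone genes were already among the brighter genes. All 13 on the array were measured, 5 of them among the 1000 brightest. Ins2 (probe A_52_P407060, chromosome 7, 142488160 to 142488219, mm8) read 6.21, 6.53, 6.62 and 6.5, and Ins1 4.56, 4.93, 5.19 and 4.99. Gcg, the glucagon gene, read 5.43, 5.62, 5.88 and 5.48, and Pyy, a peptide of early islet cells, 5.09, 5.32, 5.51 and 5.60. Each of the 4 was lowest in pool 1. Iapp, the amyloid peptide that beta cells secrete with insulin, lay at 3.87 ± 0.38, Sst at 2.53 ± 0.19, Ghrl at 1.69 ± 0.15 and Ppy at 0.31 ± 0.25. The gastrointestinal hormones Gast (-1.92 ± 0.16) and Gip (-2.02 ± 0.20) were dimmest.

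A promoter feature that played no part in choosing the hormone genes was present in some of them. RefSeq promoters (GRCm38.p6) were found for 12 of the 13 hormone genes, 16 promoters in all, since a gene can have several starts. Ins2, the brightest hormone gene, was the one without a promoter in the table. The letters TATAA on the gene's strand, 45 to 15 bases before the start, were present in 7 of the 16 (43.8%). They were present in 3.89% of all 32851 promoters of the table. They were present in 0 of 67 promoters of oxidative phosphorylation subunits and in 1 of 20 of the endoplasmic reticulum genes (5.0%). For ribosomal protein genes (62 of 83 matched) and acinar products (23 of 30 matched) under 80% of members were in the table, so the check was void for them. Their readable promoters held the letters in 5 of 73 (6.85%) and 7 of 24 (29.2%). Whether hormone genes differ from acinar products in this was therefore not settled. The 60 bases before the start are shown for the hormone genes with a match, with TATAA in capitals, because they show how alike its place is. Ins1 and 2 bright subunits of oxidative phosphorylation, Cox6a1 and Atp5b, follow as promoters without these letters in that window.
Gcg (chr2:62483654-62483713, minus strand): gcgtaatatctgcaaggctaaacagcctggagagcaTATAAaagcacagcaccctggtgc
Iapp (chr6:142298365-142298424, plus strand): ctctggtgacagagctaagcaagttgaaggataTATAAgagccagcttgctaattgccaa
Ppy (chr11:102101320-102101379, minus strand): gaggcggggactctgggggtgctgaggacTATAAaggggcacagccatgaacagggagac
Pyy (chr11:102107833-102107892, minus strand): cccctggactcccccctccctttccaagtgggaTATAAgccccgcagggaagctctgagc
Gast (chr11:100334347-100334406, plus strand): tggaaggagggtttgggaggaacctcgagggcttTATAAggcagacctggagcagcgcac
Sct (chr7:141279134-141279193, minus strand): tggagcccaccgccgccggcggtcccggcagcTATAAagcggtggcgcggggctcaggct
Gip (chr11:96024485-96024544, plus strand): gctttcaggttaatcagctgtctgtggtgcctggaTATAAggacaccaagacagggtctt
Ins1 (chr19:52264237-52264296, plus strand): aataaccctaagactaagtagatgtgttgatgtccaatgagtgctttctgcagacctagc
Cox6a1 (chr5:115348959-115349018, minus strand): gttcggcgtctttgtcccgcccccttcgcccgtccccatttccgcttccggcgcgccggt
Atp5b (chr10:128083247-128083306, plus strand): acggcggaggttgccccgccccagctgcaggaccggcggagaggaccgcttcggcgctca
The TATAA letters began between 24 and 31 bases before the start in these 7 promoters. The match is one of letters only. The hormone genes with a match ran in level from Gcg at 5.60 to Gip at -2.02. Ins1, at a level of 4.92, had no match in the window before its listed start. Another Ins1 start could differ and was not checked, and Ins2 could not be read.

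Endocrine transcription factors lay near the middle of the arrays, with a median of -0.49 over all 17 on the array. Neurog3, the switch of the endocrine precursor, read 1.07, 1.15, 1.08 and 0.87. Nkx2-2 lay at 1.53 ± 0.13, Isl1 at 0.92 ± 0.17, Pax6 at 0.08 ± 0.10 and Pax4 at -0.36 ± 0.03. Mafa, known from mature beta cells, was among the dimmest measured genes at -4.55 ± 0.17. Of the granule genes, Chgb (5.20 ± 0.06), Cpe (4.04 ± 0.14) and Chga (3.89 ± 0.04) were brightest.

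Duct and trunk genes were all measured, 16 of 16, with a median of 1.07. Spp1, the osteopontin gene of duct cells, read 5.85, 5.93, 6.07 and 5.81. Bicc1, an RNA-binding protein of tubular epithelia, lay at 4.58 ± 0.03 and Krt7 at 3.94 ± 0.12. Krt19, a keratin of duct epithelium, had one of the 6 smallest spreads among the brighter genes, with 2.74, 2.73, 2.74 and 2.74 and an SD of 0.0030. That SD is far below the median SD of 0.0625 between spots of 1 probe on an array. It therefore does not show that Krt19 is steadier in the tissue than other genes. Sox9, the factor the study deleted in its other arm, read 1.98, 2.20, 2.18 and 2.02 at its brightest probe (chromosome 11, 112601784 to 112601843, mm8). A second Sox9 probe read 1.77, 1.90, 1.87 and 1.77 and the remaining one -2.36, -2.28, -2.29 and -2.73. The 3 probes thus gave close readings between pools and different levels. Cftr, the chloride channel of ducts, lay at -5.01 ± 0.30.

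The progenitor factors were moderate in signal. Foxa2 lay at 3.40 ± 0.05, Hhex at 2.0 ± 0.15 and Pdx1, which the whole pancreas needs, at 0.07 ± 0.10. Nkx6-1, a trunk and beta cell factor, read 2.92, 2.82, 2.71 and 2.16, lowest in pool 4. Foxa1 was well above background on no array. In the Notch pathway, the receptors read between 0.55 (Notch1) and 2.12 (Notch3), the ligands Jag1 and Dll1 2.13 ± 0.22 and 0.61 ± 0.14, and the target Hes1 0.11 ± 0.06. Dlk1, a delta-like protein of the same family by structure, was the thirtieth brightest gene at 7.10 ± 0.08. In the Hedgehog pathway, Shh, a ligand kept out of the pancreatic bud in normal development, was well above background on no array. Its receptor complex member Smo lay at 4.41 ± 0.10, and the targets Ptch1 and Gli1 at -2.72 ± 0.22 and -4.15 ± 0.12.

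The label of the tissue as epithelium was checked against marker genes. All 19 general epithelial genes were measured with a median of 2.12, led by the keratins Krt8 (6.22 ± 0.04) and Krt18 (6.02 ± 0.14), with Cdh1 at 3.53 ± 0.07 and Epcam at 3.27 ± 0.12. All 20 mesenchyme genes were measured as well, with a higher median of 3.84, and 10 of them were among the 1000 brightest genes. Col1a2 read 6.85, 6.75, 7.03 and 6.70. Col1a1 lay at 6.18 ± 0.12, Col3a1 at 6.09 ± 0.13, Sparc at 6.00 ± 0.15 and Vim at 5.70 ± 0.11. Mesenchymal transcripts were thus bright in every pool, and by these markers the tissue was not epithelium alone.

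Markers of other cell types were also measured. Endothelial genes (13 of 13 measured, median 1.41) were led by Cdh5 at 2.42 ± 0.11, and leukocyte genes (13 of 13, median 1.13) by the macrophage lysozyme Lyz2 at 4.16 ± 0.19. Of the neuron and Schwann cell genes 16 of 16 were measured, with a median of -0.72. Erbb3, a receptor of Schwann cell precursors, was highest at 2.31 ± 0.12 by its brightest probe. Its other measured probes lay at -3.43, -4.79, -5.61 and -5.83. Hba-a1, an alpha globin, read 5.72, 5.28, 4.74 and 5.30. Of the 12 gut, stomach and spleen genes, 8 were measured at a median of -1.96, and Cdx1 and Gkn1 were well above background on no array.

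**Figure D2:**
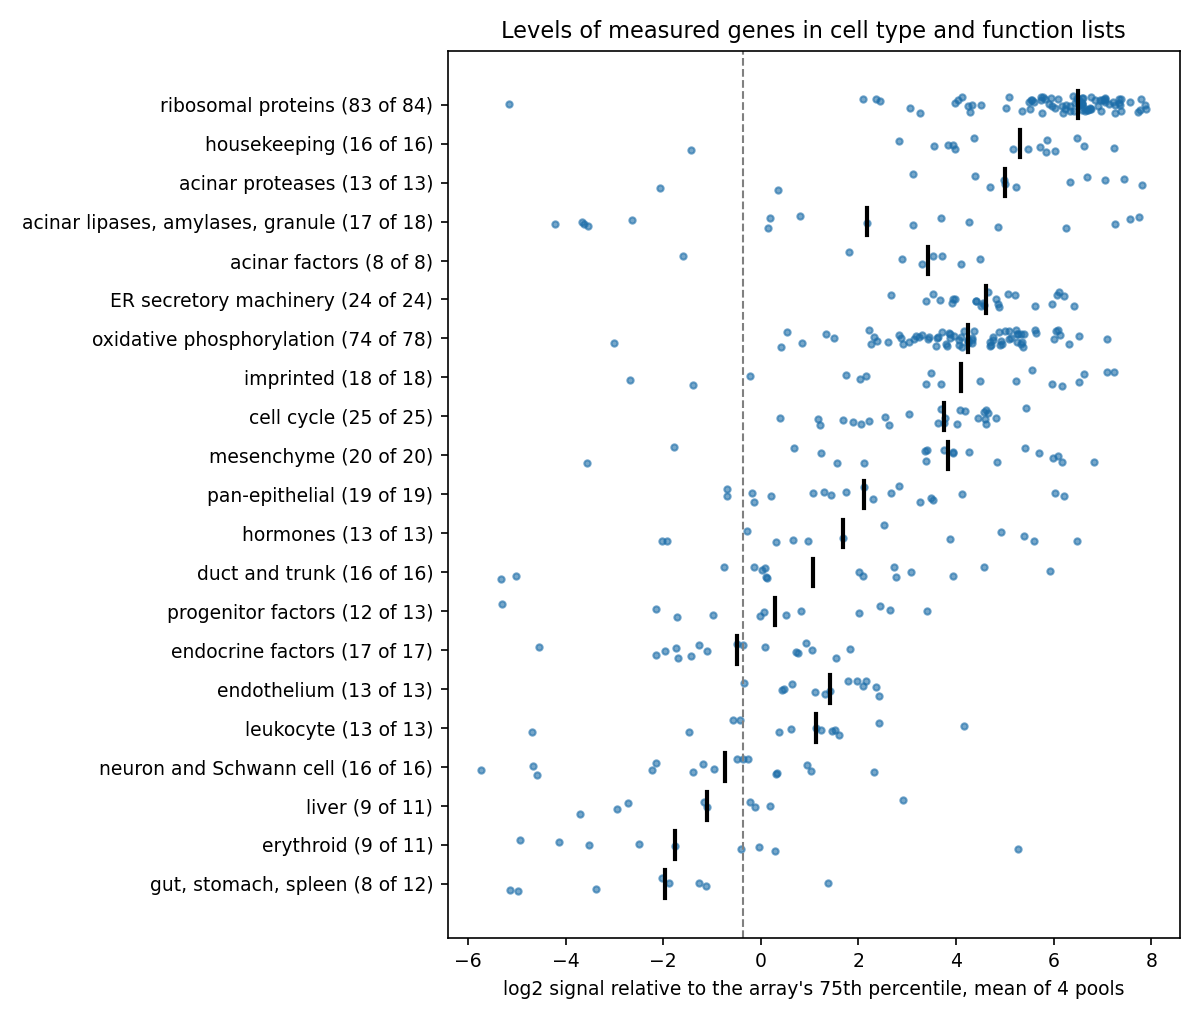
Levels of the measured genes of 21 lists on a log2 scale relative to the array's 75th percentile, each point being 1 gene's mean over 4 pools and each bar a list's median; the dashed line is the median of all measured genes (-0.37). Numbers in brackets are genes measured of those on the array. Acinar proteases have a median of 5.0 and mesenchyme genes 3.84, above the general epithelial genes at 2.12.

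Imprinted genes were among the brightest, and growth genes were steady. All 18 imprinted genes on the array were measured, with a median level of 4.09 and a median SD of 0.107, down to Peg10 at -2.68 ± 0.41. H19, an imprinted noncoding RNA, read 7.21, 7.25, 7.33 and 7.16, and its neighbour Igf2, a fetal growth factor, lay at 6.62 ± 0.10. Plagl1 lay at 6.52 ± 0.08. All 25 cell cycle genes were measured and lay above the median level of all genes, with a median of 3.76 and a median SD of 0.0796, among them Mki67 at 4.66 ± 0.08 and Mcm6 at 5.44 ± 0.10. Subunits of oxidative phosphorylation (74 of 78 measured, median 4.24) had a median SD of 0.0605. Cox6a1 read 7.04, 7.08, 7.10 and 7.11.

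Families of developmental regulators differed in how many members could be measured. Of the Hox genes 23 of 38 were measured and of the Pax factors 3 of 9. Of the Wnt ligands 13 of 19 were measured and of the Fgf ligands 11 of 21. Families were counted by current symbol, and of all 19750 current symbols on the array 15240 (77.2%) were measured. The shares for Wnt ligands (68.4%), Hox genes (60.5%), Fgf ligands (52.4%) and Pax factors (33.3%) all lay below that value. All 10 frizzled receptors and all 4 Fgf receptors were measured. The brightest Hox gene was Hoxb2 at 0.87 ± 0.12, and the brightest Wnt ligand Wnt5b at 0.10 ± 0.11. Olfactory receptors, which this tissue is not known to use, gave a reading of what low signal means here: 136 of 906 (15%) counted as measured, at a median of -4.67. Fgf10, a mesenchymal signal to the pancreatic epithelium, lay at -2.06 ± 0.12.

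The 4 pools were close to each other. Pearson's r between pools was taken over genes, which are no independent replicates, and was 0.9939 to 0.9964. The median absolute difference of a gene between a pair of pools was 0.0974 to 0.156, and 108 (pools 2 and 3) to 242 (pools 1 and 4) genes differed by more than 1. The median SD over all measured genes was 0.118 and the 95th percentile 0.392. An SD above 0.5 was seen in 417 of 18327 genes (2.28%). With the deposited series table that number was 161, and with normexp background correction after replacing 9 aberrant local backgrounds it was 192. Spread rose as signal fell. The median SD was 0.0853 among the 4582 brightest genes and 0.205 among the 4582 dimmest, and these 2 sets held 22 and 245 of the 417 genes. Probes printed at 10 spots gave the error between spots within an array, which leaves out differences between arrays in labelling and hybridisation. The median SD between the spots of 1 probe was 0.0625, and the SD between pools of the spot means was 0.122 for the 196 such probes that were measured. With 1 spot of each probe in place of the mean, the SD between pools was 0.130. How much of it comes from the pools and how much from the arrays cannot be told apart.

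**Figure D3:**
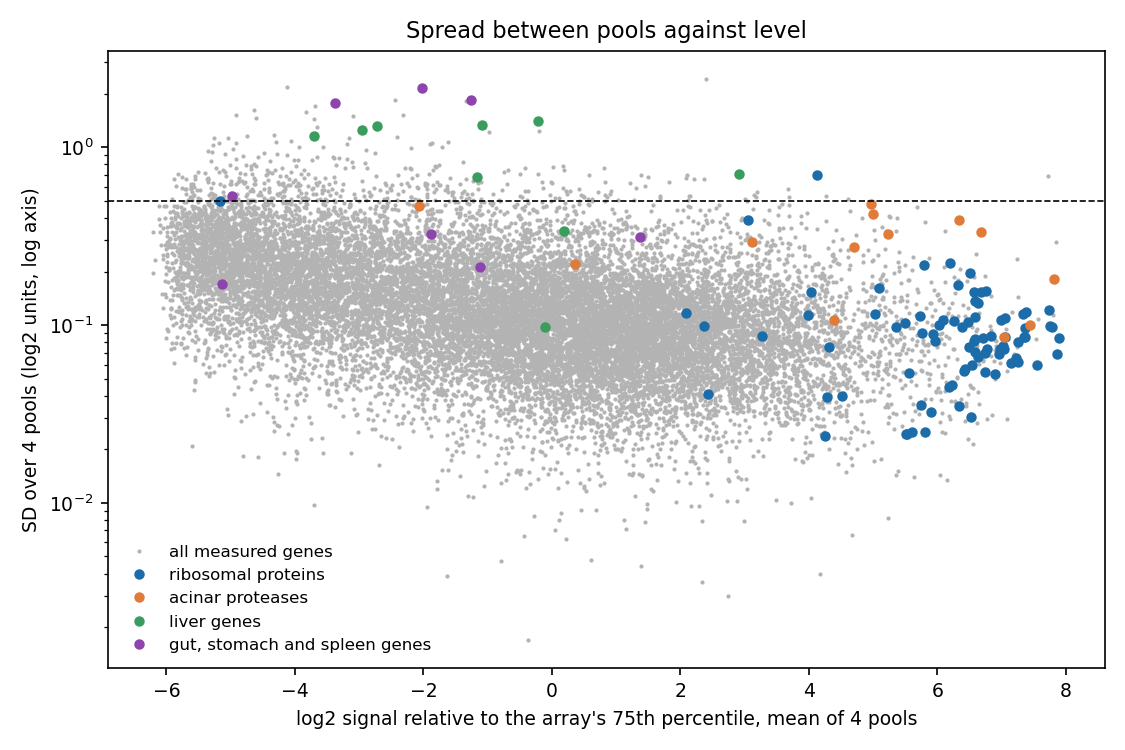
The SD over 4 pools (log axis) against the mean level of each of 18327 measured genes, with 4 gene lists coloured and a dashed line at an SD of 0.5. Ribosomal protein genes sit low (median SD 0.0853), acinar proteases, at a lower median signal of 5.0 against 6.49, lie higher (0.295), and liver genes at a median of 1.15.

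Liver and erythroid genes had the largest median SDs of the 49 lists, 1.15 and 0.541, followed by the 4 measured sex-linked genes at 0.486, 3 Reg genes at 0.45 and the gut, stomach and spleen genes at 0.43. Of the 9 measured liver genes 7 had an SD above 0.5, of the 8 measured gut, stomach and spleen genes 4, and of the 9 measured erythroid genes 6. Of all measured genes 2.28% did. The median levels of these lists were -1.09, -1.96 and -1.76. Among the genes between -2.93 and -0.37 the count was 111 of 4582, and among the dimmest 245 of 4582. The liver genes were highest in pool 2 in 7 of 9 and lowest in pool 4 in 6 of 9, against 14.7% and 25.9% of all measured genes. Alb, the albumin gene, read 0.45, 1.45, -1.30 and -1.47, so that pools 1 and 2 stood above pools 3 and 4. Afp, the alpha-fetoprotein of fetal liver and yolk sac, read 3.12, 3.83, 2.32 and 2.40. Ahsg, a liver serum protein, read -0.47, 0.48, -2.04 and -2.35. Ttr, which islet cells also express, read -0.14, -0.10, -0.22 and 0.02 and did not follow this order.

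Intestinal genes had another order. Fabp1, a fatty acid binding protein of liver and gut, read -0.13, -2.58, -4.82 and -0.58. Fabp2, its intestinal relative, read -1.59, -4.60, -5.15 and -2.15, and Lgals4, an intestinal galectin, 0.85, -2.48, -3.11 and -0.31. All 3 were high in pools 1 and 4 and low in pools 2 and 3. A second Lgals4 probe read -0.60, -3.73, -4.49 and -2.10. Dmbt1, counted with the acinar granule genes but also made by gut epithelium, read -1.94, -4.95, -4.32 and -3.43, and Foxf2, a factor of gut mesenchyme, -3.01, -5.11, -4.86 and -3.25. Both were higher in pools 1 and 4 than in pools 2 and 3. They are not in the gut, stomach and spleen list and were set beside these genes after their values were seen. Their readings in pools 2 and 3 were near the olfactory receptor median of -4.67. Of the genes that define the intestine, Cdx1 was well above background on no array, and Cdx2 and Muc2 on some. Vil1, the villin gene of the brush border, was brighter, with 1.49, 1.16, 1.08 and 1.76, again higher in pools 1 and 4. Tff2, of the gut, stomach and spleen list, did not follow this order, with -1.32, -1.25, -1.05 and -0.85.

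**Figure D4:**
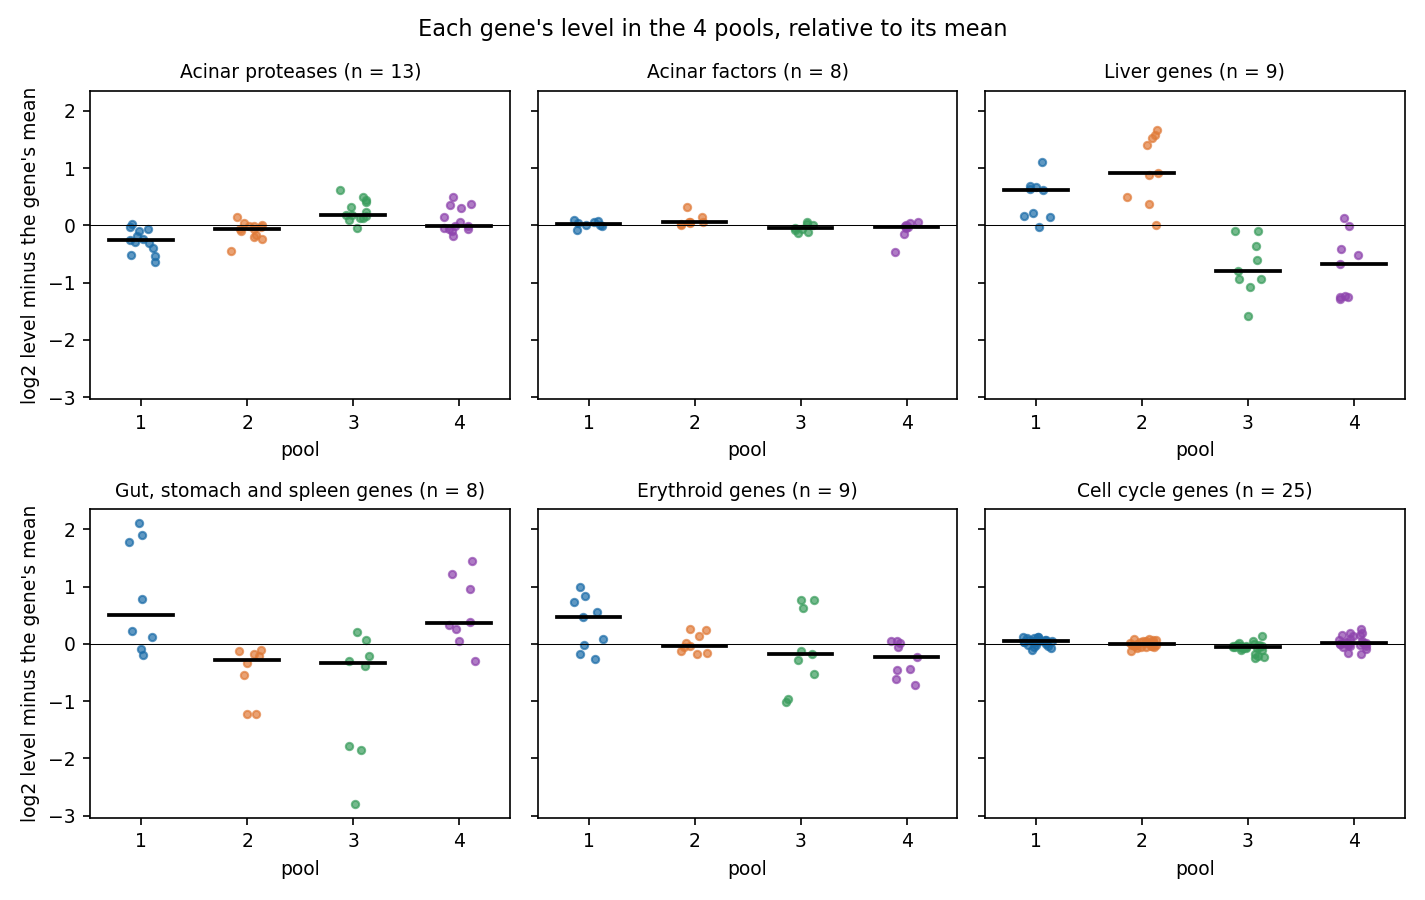
Log2 level of each gene minus its own mean in pools 1 to 4, for 6 lists; each point is 1 gene and each black bar the median of a list in that pool. Acinar factors, apart from Nr5a2 in pool 4, and cell cycle genes stay near 0 in every pool, liver genes are high in pools 1 and 2 (Alb 0.45 and 1.45 against -1.30 and -1.47 before subtraction), and several gut genes are high in pools 1 and 4.

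Red blood cell and nerve genes varied too. Slc4a1, the anion exchanger of red cells, read -0.77, -1.79, -2.72 and -1.75, and Alas2, the haem synthesis enzyme of red cells, 0.41, -0.28, -1.44 and -0.36. Both were highest in pool 1 and lowest in pool 3, like Hba-a1. The embryonic globins ran another way, with Hbb-y at 0.26, 0.15, 1.05 and -0.32 and Hba-x at -0.29, -0.07, 0.74 and -0.49, both highest in pool 3. Of the 16 neuron and Schwann cell genes, 9 were highest in pool 1, against 27.6% of all measured genes. The dim olfactory receptors were also mostly highest there, 98 of 136 (72.1%). The count of 9 thus does not set nerve genes apart from a list of low signals. Th, the first enzyme of catecholamine synthesis, read -0.46, -2.47, -1.23 and -1.38, Tubb3, a neuronal tubulin, 1.46, 0.36, 0.98 and 0.95, and Stmn3, a neuronal stathmin, 1.35, -0.34, 0.61 and 0.68. In each of the 3, pool 1 was highest and pool 2 lowest.

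The general epithelial list and 3 non-epithelial lists ranked pool 3 differently. Of the 19 general epithelial genes, 12 were lowest in pool 3 and 0 highest there. Of all measured genes, 25.2% were lowest and 22.5% highest in pool 3. Other lists of epithelial cells did not share this. Of the 13 acinar proteases 0 were lowest and 8 highest in pool 3, and of the 16 duct and trunk genes 4 and 2. Of the 13 leukocyte genes, 10 were highest in pool 3, as were 8 of 13 endothelial and 11 of 20 mesenchyme genes. Across the 6 other scalings and sources these counts in pool 3 were 10 to 13 of the epithelial genes lowest, and highest were 9 to 11 of the leukocyte, 7 to 9 of the endothelial and 8 to 13 of the mesenchyme genes. The mean over the mesenchyme genes was 3.33, 3.25, 3.47 and 3.42 in pools 1 to 4, and over the leukocyte genes 0.53, 0.41, 0.73 and 0.59. Their part in the acinar differences between pools was not tested.

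A few genes known from interferon responses are given as a description, since they were grouped after their values were seen to be lowest in pool 1 and highest in pool 3. Ifit3 read -1.15, -0.31, 0.53 and 0.05 and Isg15 0.28, 0.84, 1.61 and 0.92. Iigp1 read 0.24, 0.65, 1.46 and 1.31. Psmb8, an interferon-induced proteasome subunit, read 0.10, 0.39, 0.93 and 0.67. B2m, which completes class I antigen-presenting molecules, was the housekeeping-list gene with the largest spread, at 3.25, 3.32, 3.84 and 3.78.

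Sex-linked genes differed between pools, and the labels used do not give the sexes of the pooled embryos. Xist, the RNA that silences an X chromosome in females, read 1.49, 3.05, 1.67 and 2.17. Its 3 other probes were likewise highest in pool 2, at 1.94, -0.66 and -1.55. The Y-linked Ddx3y read 0.00, -1.03, -0.04 and -0.80, Eif2s3y -0.17, -1.08, -0.12 and -0.37, and Kdm5d -1.40, -2.42, -1.70 and -1.88. All 3 Y-linked genes were lowest in pool 2, where Xist was highest, and both kinds were present in every pool.

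Single pools stood apart by at least 1 log2 unit from all others in few genes. Pool 4 stood below the others in 47 genes, pool 3 in 14, pool 2 in 7 and pool 1 in 5. Pool 1 stood above them in 26 genes, pool 2 in 9, pool 3 in 7 and pool 4 in 5. Above the median level, 13 genes were low in pool 4 and 0 low in another pool. Rn18s, the array's name for 18S ribosomal RNA, read 7.94, 8.05, 8.21 and 6.70, with a second probe at 1.87, 2.03, 2.27 and 1.18. Eif4ebp2, an inhibitor of translation initiation, read 2.44, 2.47, 2.38 and 1.08, Zc3h13, part of the RNA methylation complex, 2.18, 2.13, 2.12 and 0.87, and Rnf20, a histone ubiquitin ligase, 1.84, 1.84, 1.83 and 0.47. Of the 47 genes, 19 had a second measured probe, and in 13 of these it was also lowest in pool 4. For Rnf20 it was not, with -0.73, -0.59, -0.63 and -0.58.

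Eif4e, the cap-binding factor of translation, had the largest spread of all measured genes, with 1.25, 6.03, 0.96 and 1.35. The pool 2 spot was marked as an outlier by the scanner software and was kept because this probe has a single spot. Another Eif4e probe read 1.99, 1.98, 1.86 and 2.02. The SD of 2.43 thus rested on 1 marked spot, and without such probes 414 genes had an SD above 0.5.

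Probes of one gene often gave different levels. Of 6654 genes with at least 2 measured probes, the brightest and the next differed by a median of 1.69 and by more than 3 in 1760 (26.5%). Ptprz1, a receptor phosphatase of glia, was the fifth brightest gene at 7.80 ± 0.11, while its other measured probes lay at -1.67 and -3.86 and 1 more was above background on no array. Lrrc58 lay at 7.16 ± 0.12 with other probes at 2.46, -2.47 and -3.03, and Grn, a lysosomal growth factor precursor, at 7.24 ± 0.23 with another at 3.57 ± 0.09. Lars2, a mitochondrial leucyl-tRNA synthetase, had 1 probe and read 7.93, 7.88, 8.15 and 7.45. The place of these genes among the brightest thus rests on 1 probe each, and the acinar genes Ctrb1, Cpa1 and Pnliprp1 also had 1 probe each. Where the brightest probe had an SD above 0.5 and a second probe was measured (74 genes), the second did so too in 27 (36.5%), against 1.96% of 6580 other genes.

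**Figure D5:**
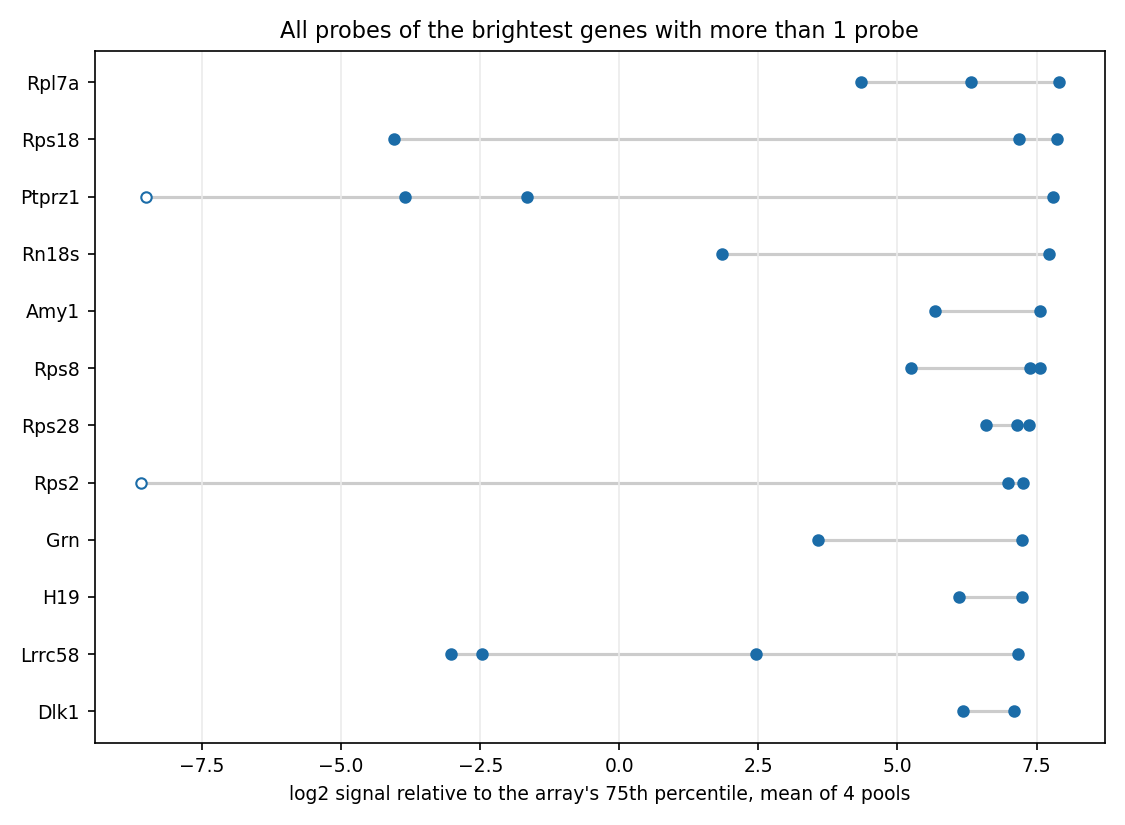
All probes of those of the 30 brightest genes that have more than 1 probe, as the mean log2 signal of 4 pools relative to the array's 75th percentile. Filled points were well above background on all 4 arrays and open points were not; Ptprz1 spans from 7.80 to below background, while the Rps28 probes lie close together.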

How the data were processed

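Total RNA of 4 wild-type pools was labelled with Cy3 and hybridised to 1-colour Agilent arrays (design 014868). Agilent's Feature Extraction 9.5.3.1 made the deposited files, per the file headers. The processed signal used here is a linear intensity, background-subtracted by that software and not normalized between arrays. The series values deposited beside them, also an intensity per probe, served only as an alternative. The submitters' processing notes name limma, without steps.

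Control spots were left out, outlier-marked spots too where another spot of the probe remained, and spots of a probe were averaged as log2. The 75th percentile over probes was subtracted per array. Names came from the array, matched to a RefSeq table of GRCm38.p6 (24375 probes by accession, 6301 by symbol, 2426 by synonym, 8072 unmatched); probe coordinates are mm8 (NCBI36), per the files. The histone name pattern also matched H13 and H19, which were removed.

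No groups were compared and no p-value was computed. The scripts were tested on simulated data. Python 3.11.15, pandas 2.3.3, numpy 2.4.6, matplotlib 3.10.9 and, for the normexp alternative, limma 3.58.1, R 4.3.3 with data.table (version 1.17.8) were used. Genes were named by rule: the 30 brightest, up to 4 brightest and the most variable member of each of 49 lists, the 12 most and 6 least variable genes above the median level, and key genes; others were named after their values were seen. Members and lists were chosen with earlier results of these data known. Array number limits the precision. No columns of other samples were used. Some named genes are not reported here.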

Additional observations from a re-analysis of the deposited data

Results flagged for a closer look

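Of 332 named genes and list means tested, 15 (4.52%) had 1 pool far from the other 3, where chance gives about 1 in 20; over all measured genes it was 1099 (6.0%). Among the 15, Rnf20, Eif4ebp2 and Zc3h13 had been named after their values were seen, and Tnrc18 and Olfr24 for their large SDs. The share of 4.52% and the counts by pool are thus partly set by that choice. Pool 4 was the distant pool in 9 of the 15 results. It was low for Rnf20 (0.47 against a median of 1.84 in the other pools), Eif4ebp2 (1.08 against 2.44), Zc3h13 (0.87 against 2.13), Tnrc18 (-0.93 against 0.60, Zfp469 on the array) and the factor Sox4 (1.72 against 2.48). It was high for the stress factor Atf3 (-0.85 against -1.83), the co-chaperone Dnajb1 (3.72 against 3.59), Hoxb6 (-0.15 against -0.32) and the olfactory receptor Olfr24 (-2.46 against -4.51). Pool 2 was high for Eif4e (6.03 against 1.25, a spot marked by the scanner software) and for Pdcd11 (-0.36 against -0.37, an SD of only 0.0017), and low for the smooth muscle gene Tagln (3.04 against 3.5). Pool 3 was high for Rpl32 (7.23 against 7.11) and for the mean of the laminin genes (-0.0646 against -0.119). Pool 1 was high for the unnamed transcript TC1654271 (1.64 against -0.78), also from a kept marked spot. Second probes did not show the high pool 4 value for Dnajb1 (0.72, 0.64, 0.55 and 0.58) or Hoxb6 (-1.17, -1.30, -1.16 and -1.50). The causes were not tested.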

How the results depend on the processing

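The number of acinar genes by current symbol among the 100 brightest lay between 7 and 9 under all 17 alternatives. That of ribosomal protein genes lay between 31 (dimmest probe of a gene) and 44 (series table). Of the 17 alternatives, 4 were chosen after seeing the data. The other counts moved further. The 417 genes with an SD above 0.5 became 161 with the deposited series table, where the cause was not tested, 1222 when a probe had to be above background on at least 1 array, and 3335 with no filter. With no filter 27745 genes were kept and the median SD was 0.1893. With normexp the count was 6445 and the median SD 0.2784. On the array of pool 3, 9 spots had a local background above their signal (up to 62655 units), and with these replaced by the array's median background the count was 192 and the median SD 0.1099. Leaving out 1 array gave 371 (without pool 4) to 562 (without pool 3) genes and median SDs of 0.0938 to 0.122. Of the 100 brightest genes, 66 remained with the dimmest probe and 72 with the mean over probes. Signal over background limits the dim genes, and 1 slide and scan leave no batch to compare. No paired analysis was possible because no groups were compared.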

Other observations

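Further families had bright members. Serpina6, the corticosteroid-binding globulin gene, read 6.52, 6.79, 6.96 and 6.68 and was the brightest of 31 measured serpins. Serpinh1, the collagen chaperone, lay at 6.14 ± 0.09 and Serpini2, a protease inhibitor of acinar cells, lay at 4.86 ± 0.10. Cldn7, a tight junction claudin, read 4.30, 4.12, 3.98 and 4.09, highest in pool 1. Of the basement membrane genes, Lamc1 lay at 4.49 ± 0.04 and its epithelial receptor subunit Itga6 at 4.21 ± 0.06. Fgfr4 was the brightest of the 4 Fgf receptors at 1.32 ± 0.06.

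Stress genes differed by member. Hspa8, a constitutive heat shock chaperone, read 4.88, 5.35, 5.63 and 5.56, lowest in pool 1. Its second probe ran the other way, with 5.24, 5.08, 4.91 and 5.06, so the probes gave no common order. Fos, which handling of tissue is known to induce, was dim at -3.58 ± 0.14, while Ier2 lay at 2.47 ± 0.06 and Klf4 at 2.94 ± 0.18. Of the 15 immediate early genes, 10 were highest in pool 4, against 35.3% of all measured genes.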
